A study of Mus musculus with 2 samples.

Results

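The cells described here are 185 weak responders, the cells with the lowest levels of 4 interferon-induced GTPase genes within 6 tumors of a pool in which these genes were otherwise abundant. They were chosen by their readout: in each of 6 hashtag pairs, cells were ranked by the summed UMIs (unique molecular identifiers, each 1 captured transcript) of Igtp, Iigp1, Ifi47 and Gbp2 per 10000 gene UMIs, and the lowest 20% were taken. They are 185 of 935 cells in the 6 pairs, of 1514 barcodes that passed the filters, and of 20917 barcodes in the deposited matrix. The highest 20% of each pair, 185 strong responders, served as the comparison, and 565 cells lay between. A further 579 cells belonged to 12 other hashtag pairs.

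NMM, the line behind all cells, is a mouse melanoma with mutated NRAS, and its tumors were grown in Rag-/- mice, which make no T or B cells of their own. The labels list 3 conditions of 6 tumors each, Mix PBS, Mix + T and Ag-GAS + T, the design text names exposure to T cells or, as control, PBS, and the abbreviations are not explained in the sources used here. The 18 tumors were tagged with hashtag antibodies, pooled at equal cell numbers, sorted for CFP+ cells, which the labels call bystander tumor cells, and sequenced as 1 gene expression library, by 3′ counting on the 10x Genomics platform, and 1 hashtag library. No source used here ties a hashtag to a condition, so the condition of the 6 pairs is not given, no condition was inferred, and each pair was taken as 1 tumor from the tags alone.

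Interferon-gamma, secreted mainly by activated T cells and NK cells, binds the receptor chains Ifngr1 and Ifngr2 and activates the kinases Jak1 and Jak2, which phosphorylate transcription factors of the STAT family. STAT dimers bind GAS elements in promoters, among them that of Irf1, and IRF proteins and the STAT complex of type I interferons bind ISRE elements. Target genes encode immunity-related GTPases and guanylate-binding proteins, the antigen presentation machinery, chemokines that attract T cells and the feedback inhibitor Socs1.

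The 2 kinds of element are shown here in promoters of genes that were lower in the weak responders, 1 from each of 6 steps of the response, with the element in capitals. The sequences are from RefSeq on GRCm38.p6, read 5′ to 3′ on the gene's own strand and lying upstream of the start site. A GAS element was searched as TTCNNNGAA and an ISRE as GAAANNGAAA, each on both strands, and the motifs may overlap one another.
Igtp, a rule gene, GAS at chr11:58199486-58199544 (+): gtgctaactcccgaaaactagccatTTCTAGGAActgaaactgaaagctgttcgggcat
Irf1, transcription factor, GAS at chr11:53769899-53769957 (+): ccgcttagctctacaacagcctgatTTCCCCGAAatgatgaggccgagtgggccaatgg
Socs1, feedback inhibitor, ISRE at chr16:10785585-10785644 (-): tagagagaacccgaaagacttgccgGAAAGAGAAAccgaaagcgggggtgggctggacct
Cxcl10, chemokine, ISRE at chr5:92349068-92349127 (-): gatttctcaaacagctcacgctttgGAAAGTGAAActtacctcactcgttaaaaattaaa
B2m, class I light chain, ISRE at chr2:122147523-122147582 (+): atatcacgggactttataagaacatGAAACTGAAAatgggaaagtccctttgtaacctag
Ifit3, antiviral gene, ISRE at chr19:34583348-34583407 (+): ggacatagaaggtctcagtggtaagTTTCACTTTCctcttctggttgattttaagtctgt
In Ifit3 the element lies on the opposite strand, so it reads in reverse complement. The Igtp stretch also holds an ISRE, left in lower case, 34 to 25 bases upstream of the start site. The Socs1 stretch holds a further ISRE that overlaps the marked one.

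The 4 genes of the rule are given as a description, since they chose the members. The score of the weak responders had a median of 5.53 per 10000 gene UMIs and ran from 0 to 16.2, against medians of 22.9 in the middle cells and 49.2 in the strong responders, whose lowest cell stood at 36.0 and highest at 152. By pair, the weak median ran from 1.82 in pair 6/7 to 12.2 in pair 3/9, so the weak responders of pair 3/9 were the least depleted. The last cell inside and the first cell outside the limit differed little, at 16.2 and 16.5 in pair 3/9 and at 4.85 and 4.91 in pair 6/7. Only 4 members, 3 of them in pair 6/7, had no UMI of the 4 genes, and the median member had 25. In the 12 other pairs the cells had a median score of 3.44, and 52 members (28.1%) were at or below it. Barcodes under 800 gene UMIs, which hold mostly RNA from outside cells, stood at 15.5, a level above the median of the weak responders.

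**Figure D1:**
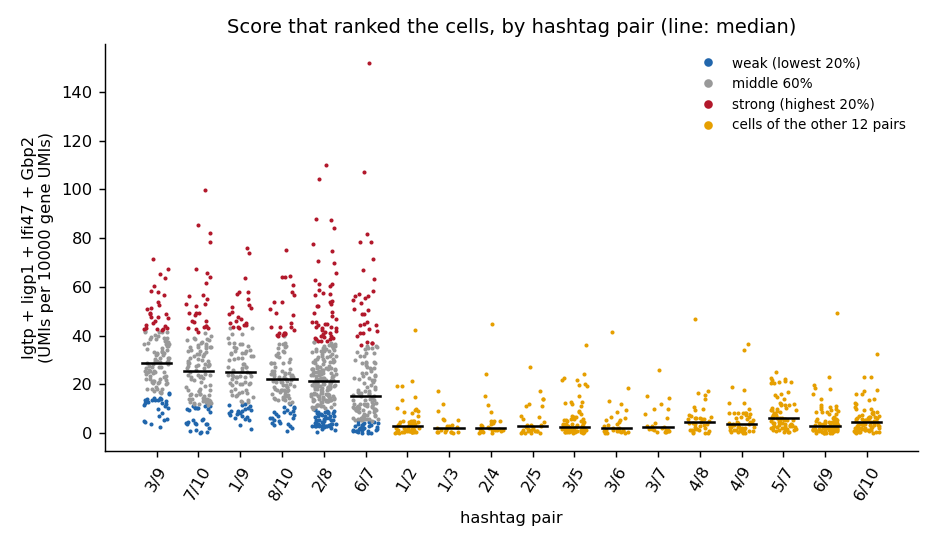
Each point is 1 cell, the y axis is the summed UMIs of the 4 rule genes per 10000 gene UMIs, the x axis is the hashtag pair, and black lines are pair medians. In the 6 chosen pairs the weak responders run from 0 to 16.2 and the strong responders from 36.0 to 152, and the medians of the 12 other pairs lie between 1.92 and 6.01.

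To compare cells at 1 depth, each was thinned at random to 10000 UMIs, which kept 181 weak and 170 strong responders, and levels below are mean UMIs per thinned cell, computed within each pair. A gene was tested where the middle cells averaged at least 0.2 UMIs, and called where its mean log2 ratio of weak to strong over the 6 pairs reached a fold of 1.5, with a pseudocount of 0.05, and had the same sign in all 6. Errors are SDs over the 6 pairs. There is 1 library and cells are not replicates, so no p-value is given. Of 5637 genes tested, 466 (8.27%) were called lower in the weak responders and 302 (5.36%) were called higher. These shares are the background for the counts below that use the rule's ranking. The lower genes were the more extreme: 59 of them differed by at least 4-fold, and none of the higher genes did. Many of the calls lie near the limit, since a repeat of the random thinning shared 329 of the 466 lower and 158 of the 302 higher calls. The median log2 ratio of all genes tested was 0.026.

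The interferon-induced GTPases outside the rule, relatives of the rule genes that attack the vacuoles of intracellular pathogens, were lower in the weak responders without exception among those tested. All 13 of 13 tested genes of a list of 20 were called lower, against 8.27% of all genes. Their summed level ran over pairs from 4.61 to 12.3 UMIs in the weak responders, with a median of 8.61, and from 39.4 to 55.3, with a median of 46.9, in the strong responders. The groups did not overlap, and the mean log2 ratio was -2.53 ± 0.59 (SD, n = 6 pairs), a 5.76-fold difference. Gbp4 (chr5:105115767-105139586, GRCm38), a guanylate-binding protein, had the lowest ratio of all genes tested. Its level was 0.0645 to 0.370 UMIs (median 0.193) in the weak and 3.58 to 6.0 (median 4.45) in the strong responders. That is a log2 ratio of -4.28 ± 0.77. Gbp5 followed at -3.20 ± 0.93 and Gbp6 at -2.97 ± 0.96. Among the immunity-related GTPases, F830016B08Rik stood at -3.30 ± 0.84 and Tgtp2 at -2.94 ± 1.20. These families hold near-identical copies, such as Tgtp1 and Tgtp2, between which reads may be split.

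The receptor and kinase list had a log2 ratio of -0.78 ± 0.31. This was smaller in size than the -2.53 of the GTPases and the -1.75 of the STAT and IRF list. It was larger than the -0.58 of the negative feedback list. Of 7 receptor and kinase genes, 6 were tested and 3 were called lower, namely Ifnar1, Ifnar2 and Jak2. Jak2, the kinase bound to Ifngr2, ran from 0.0323 to 0.185 UMIs (median 0.134) in the weak and from 0.318 to 0.792 (median 0.462) in the strong responders. Its groups did not overlap and its log2 ratio was -1.65 ± 0.72. Both chains of the interferon-gamma receptor missed the call: Ifngr1 had a log2 ratio of -0.52 ± 0.88 and was lower in 4 of 6 pairs, and Ifngr2 had -0.37 ± 0.27 and was lower in 5. Jak1 was lower in 5 of 6 pairs at -0.68 ± 0.80. Ifnar1 and Ifnar2, the chains of the type I interferon receptor, stood at -0.80 ± 0.67 and -0.76 ± 0.63. The receptor transcripts were sparse, with Ifngr1 at a median of 0.217 UMIs per cell in the weak and 0.330 in the strong responders, which limits what these pairs can show. Ranking cells within strata of depth and cycle transcripts, described below, left Ifnar1 at -0.13 and no longer called, and Ifnar2 and Jak2 called at -0.76 and -1.14.

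Of the STAT and IRF transcription factors, 7 of 10 tested were called lower, among them Stat3, Irf1 and Batf2. The summed list ran from 3.58 to 7.37 UMIs (median 5.71) in the weak and from 16.3 to 21.7 (median 18.7) in the strong responders, a log2 ratio of -1.75 ± 0.40 with no overlap. Irf1, a transcription factor induced early by interferon-gamma, had 0.290 to 0.926 (median 0.430) in the weak and 1.75 to 3.55 (median 2.86) in the strong responders, at -2.36 ± 0.89. Batf2, a partner of Irf1, stood at -3.22 ± 0.96. Stat3, which signals for interleukin-6 family cytokines, had one of the tightest ratios, -1.70 ± 0.21. The members that were not called were Irf9 at -0.24 ± 0.47, Irf3 at -0.02 and Stat6 at 0.01. Irf3, Irf9 and Stat6, like other genes given here for their role, lie outside the rule for named genes.

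The summed list of negative feedback genes was lower in 6 of 6 pairs, at -0.58 ± 0.30, but only 2 of 7 tested genes were called. Pias2 went the other way, at 0.51, and was not called. Socs1, which blocks Jak1 and Jak2, was lower in 6 of 6 pairs, with 0.143 to 0.407 UMIs (median 0.215) in the weak and 0.739 to 1.59 (median 1.24) in the strong responders, a log2 ratio of -2.10 ± 0.79. Socs3 was called at -0.78 ± 0.63 and was the only other one of 7 tested. The phosphatases Ptpn1 and Ptpn2, which dephosphorylate the same kinases and STATs, had -0.45 ± 0.52 and -0.59 ± 0.70 and missed the call. In the depth and cycle strata Socs3 lost its call, at -0.69 and lower in 4 of 6 pairs, and Ptpn1 gained one, at -0.72. Under random splitting of each cell's UMIs neither was called (Socs3 -0.49, Ptpn1 -0.11).

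Chemokines had the lowest ratio of any list, and 5 of 6 tested members were called lower. The summed level ran from 4.58 to 17.8 UMIs (median 15.5) in the weak and from 53.7 to 101 (median 83.2) in the strong responders, a log2 ratio of -2.66 ± 0.88 and a 6.31-fold difference. Cxcl10 (chr5:92346638-92348889), a ligand of the T cell receptor Cxcr3, had 0.581 to 4.94 (median 3.97) against 18.3 to 45.9 (median 39.0), at -3.75 ± 1.48. Cxcl9, a second ligand of Cxcr3, stood at -3.24 ± 0.83. The monocyte attractants Ccl2 and Ccl7 stood at -3.18 ± 0.63 and -2.88 ± 0.90, and Csf1, a macrophage growth factor, at -1.04 ± 0.30. Ccl5, a T cell and monocyte attractant, did not move with them. Its level ran from 1.23 to 7.78 (median 4.58) in the weak and from 1.43 to 5.26 (median 4.10) in the strong responders, overlapping throughout, and its log2 ratio was 0.34 ± 1.39 with 4 of 6 pairs higher. In barcodes under 800 UMIs, Ccl5 stood at 3.76 per 10000 UMIs, near the level of both groups, whereas Cxcl10 stood at 17.3, above the weak and below the median of the strong responders.

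Class I antigen presentation was called lower in 18 of 22 tested genes, but the difference was smaller than that of the GTPases. The summed list ran from 80.0 to 147 UMIs (median 112) in the weak and from 206 to 263 (median 237) in the strong responders, with no overlap and a log2 ratio of -1.08 ± 0.35. The classical heavy chains H2-K1 (chr17:33996017-34000347) and H2-D1 had -1.22 ± 0.46 and -1.14 ± 0.49, and the light chain B2m -0.95 ± 0.31. The peptide transporters had lower ratios, with Tap1 at -1.85 ± 0.39 and Tap2 at -2.07 ± 0.57. Nlrc5, the transactivator of class I genes, was sparse and stood at -1.66 ± 1.13. Those that missed the call included the general chaperones of the endoplasmic reticulum Calr at -0.17 and Pdia3 at -0.43, besides H2-Q6 and Tapbpl, each lower in 5 of 6 pairs. Heavy chain genes are close copies, and reads may be split between them.

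The hashtag counts were a second measure of each cell, which entered the filter on cells and the choice of pairs but not the ranking within a pair. Mouse hashtag antibodies of this maker are known as a mix of antibodies against CD45 and class I MHC, although the labels give no clone. Median UMIs of the pair's 2 hashtags ran from 1817 to 3695 in the weak (median over pairs 2931) and from 4127 to 7224 (median 4818) in the strong responders. The groups did not overlap, the weak value was lower in 6 of 6 pairs, and the log2 ratio was -0.92 ± 0.47. By quintile of the score, hashtag UMIs relative to the pair's median were 0.655 ± 0.154, 0.957 ± 0.145, 0.966 ± 0.0762, 1.12 ± 0.105 and 1.23 ± 0.188. Over pairs the lowest quintile ran from 0.498 to 0.916 and its neighbour from 0.744 to 1.17, so they overlap. Gene UMIs were higher in the weak than in the strong responders in 6 of 6 pairs. They were alike in the weak and middle cells, with medians by pair of 45700 to 53385 and 45683 to 53308. What made the hashtag UMIs differ between the groups was not tested. Across the cells of a pair, hashtag UMIs and the thinned class I transcripts had a Spearman correlation of 0.351 to 0.673 in the 6 pairs (102 to 249 cells each) and of 0.486 to 0.833 in the 12 others (21 to 84 cells each), as a description of cells that share 1 library. With the score the correlation was 0.192 to 0.476 in the 6 pairs and 0.118 to 0.744 in the 12 others. With ribosomal transcripts it was -0.494 to -0.130 and -0.396 to 0.0621. With gene UMIs it was -0.0547 to 0.101 and -0.435 to -0.0177. The 12 other pairs had median hashtag UMIs of 478 to 1344, below the weak responders of every chosen pair. The filter asked for a second tag at least 3 times the third. The second tag was under 10 times the third in 5.88 to 25% of the weak and 0 to 3.57% of the strong responders by pair, higher in the weak in 6 of 6 pairs, and a limit of 10 times left 483 lower and 312 higher calls.

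**Figure D2:**
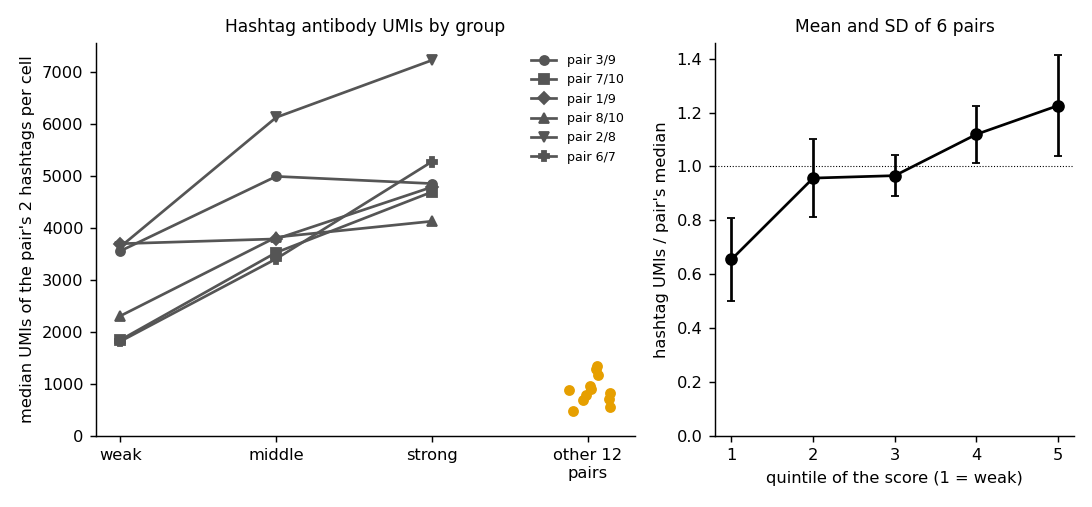
Left, median UMIs per cell of the pair's 2 hashtags in weak, middle and strong responders of each of 6 pairs (grey lines) and over all cells of each of the 12 other pairs (orange points). Right, the same UMIs divided by the pair's median, by quintile of the rule's score, as mean and SD of 6 pairs, rising from 0.655 to 1.23.

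Class II genes, which present antigen to CD4+ T cells and are switched on by interferon-gamma through Ciita, were lower than in the strong responders but uneven between tumors. Of 4 tested genes, Cd74, H2-Ab1 and H2-Eb1 were called. The list had 0.708 to 6.04 UMIs (median 1.14) in the weak and 3.52 to 13.0 (median 8.77) in the strong responders, ranges that overlap, and a log2 ratio of -2.14 ± 1.30. Cd74, the invariant chain, had 0.540 to 3.19 (median 0.641) in the weak and 1.91 to 7.04 (median 4.66) in the strong responders. By quintile of the score, Cd74 stood at 1.37 ± 1.22, 0.968 ± 0.726, 0.988 ± 0.426, 2.18 ± 1.89 and 4.53 ± 1.78. Against the middle cells Cd74 had a log2 ratio of -0.29, was lower in 4 of 6 pairs and was not called, nor were H2-Ab1 at -0.47 and H2-Eb1 at -0.24. In pair 3/9 the class II list was higher in the weak (6.04) than in the middle cells (3.65). Ciita had no UMI in the 181 weak responders, which by counting error allows a UMI in up to 1.66% of such cells at this depth, and 26 UMIs in the 170 strong responders, below the limit for testing. Macrophages and dendritic cells also carry these transcripts. The 11 macrophage markers summed to 0.0331 UMIs per cell (0 to 0.0833 by pair, 6 genes at 0) in the weak and 0.0529 (0 to 0.172, 5 genes at 0) in the strong responders, and the 8 dendritic cell markers to 0.0110 and 0, so both were near 0 in these 2 groups. The middle cells held more macrophage markers, at 0.354 UMIs per cell (0 to 1.47 by pair, no gene at 0), and 0.0272 of dendritic cell markers. Their part in the class II levels of the middle cells was not tested.

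Type I interferon-stimulated antiviral genes were called lower in 46 of 54 tested members. The list ran from 94.9 to 180 UMIs (median 156) in the weak and from 284 to 361 (median 322) in the strong responders, with no overlap and a log2 ratio of -1.14 ± 0.37. Its members spanned a wide range. Ifit2, which inhibits translation of foreign RNA, had 0 to 0.250 (median 0.136) against 0.913 to 3.55 (median 2.18), at -3.64 ± 0.62. Ifit3 had -2.81 ± 0.86 and Rsad2, the antiviral enzyme viperin, -2.66 ± 1.32. The abundant members Isg15, a ubiquitin-like modifier, and Bst2, a virus tether, differed less, at -1.48 ± 0.61 and -0.85 ± 0.46. Ifi27 was the only member called higher, at 1.24 ± 0.63 and in 6 of 6 pairs, and was named after its value was seen.

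Ligands for immune cells included Cd274, which encodes the inhibitory ligand PD-L1. It had 0 to 0.160 UMIs (median 0.0387) in the weak and 0.417 to 1.42 (median 0.903) in the strong responders, a log2 ratio of -3.32 ± 1.20. In the thinned cells, 6.08% of weak and 47.6% of strong responders had a Cd274 UMI. Vcam1, an adhesion molecule for leukocytes, stood at -2.10 ± 0.47 and Cd47, the signal against phagocytosis, at -0.74 ± 0.38. Cd274, Vcam1 and Cd47 were the 3 called genes among 5 tested, and Lgals9, at -1.13 ± 0.59, was lower in 5 of 6 pairs and missed the call.

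Genes of cell death and of TNF signalling moved less. In the list of necroptosis, pyroptosis and apoptosis genes, 3 of 11 tested were called lower: Casp1, which cleaves gasdermin D, at -1.88 ± 0.77, Casp8, the initiator caspase of death receptors, at -1.12 ± 0.43, and Gsdmd, gasdermin D itself, at -1.01 ± 0.33. Of the TNF and NF-kB targets, 3 of 12 were called lower, namely Tnfrsf1a, the main TNF receptor, at -1.0 ± 0.29, Nfkbiz at -1.01 ± 0.32 and Birc2 at -1.10 ± 0.80. Nfkbia, the classic feedback target of NF-kB, was lower in 4 of 6 pairs at -0.47 ± 0.76. The medians of these lists were -0.49 and -0.42, against 0.026 for all genes.

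**Figure D3:**
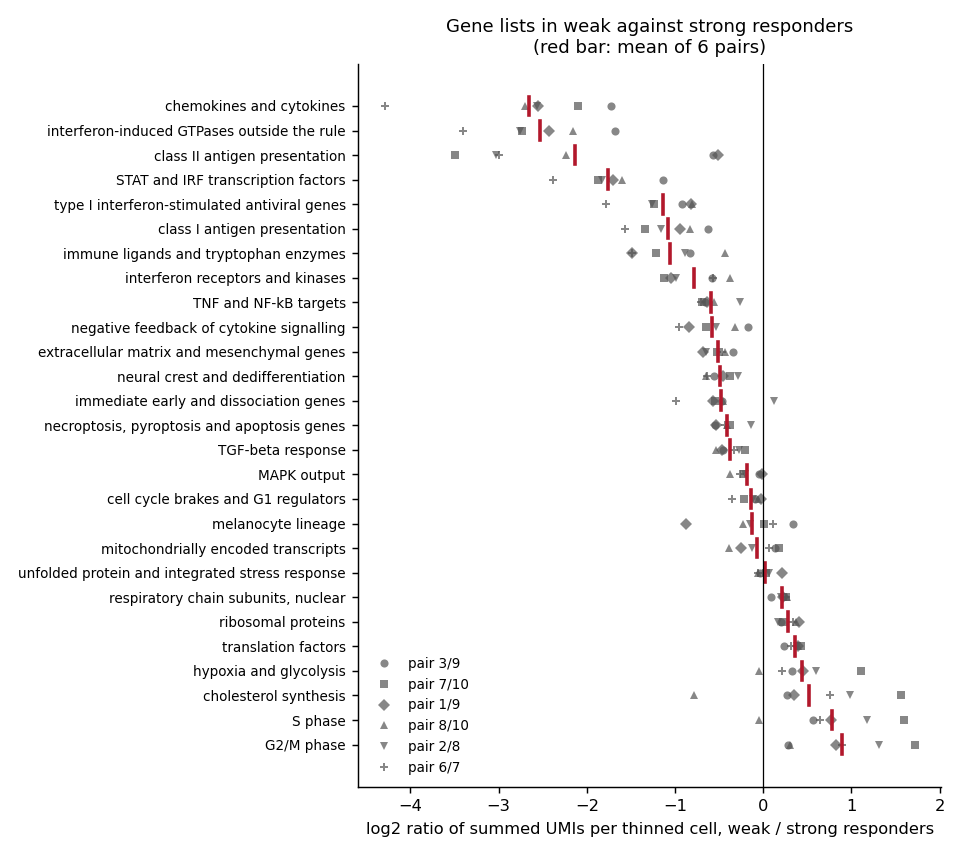
Log2 ratio of the summed UMIs per thinned cell in weak against strong responders for each gene list (rows) and each of 6 pairs (grey symbols), with the mean of the pairs as a red bar. Chemokines (-2.66) and GTPases (-2.53) lie farthest left, and the G2/M (0.89) and S phase (0.78) lists lie farthest right with a wide spread between pairs.

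Outside the lists, the 15 called genes with the lowest ratios included several with known interferon induction: Ifi207 at -2.66 ± 0.96 and Ifi208 at -2.31 ± 0.91, of the DNA-sensing Ifi200 family, Sp110 at -2.53 ± 0.77 and Sp140 at -2.39 ± 0.90, nuclear body proteins, and Znfx1, an antiviral helicase, at -2.34 ± 0.70. AW112010, a transcript induced by interferon, had the lowest at -3.31 ± 0.97. It was followed by Tmem140 at -3.07 ± 1.10 and Apod, a lipid carrier, at -2.91 ± 1.34. Mpeg1, a pore-forming protein best known from macrophages, had 0.0323 to 0.593 UMIs (median 0.226) in the weak and 1.04 to 1.77 (median 1.38) in the strong responders, while the macrophage markers were near 0 in both groups as given above. Tgm2, a transglutaminase, stood at -2.51 ± 0.92 and Cp, ceruloplasmin, at -2.56 ± 0.71.

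The promoter windows, 250 bases before to 50 after the start, were matched by symbol for 374 of the 466 genes called lower. An ISRE was found in 17.6% of them and in 54.8% of those at least 4-fold lower (42 matched), against 4.59% of all genes tested (4533 matched) and 3.99% of all 27025 genes with a promoter. Genes called higher held an ISRE in 0.407% (1 of 246). A GAS element was found in 12.6% of the lower, 19.0% of the at least 4-fold lower, 7.72% of the higher and 7.63% of all tested genes. The letters found are a description of these windows.

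Several interferon lists rose with each step of the score, which ranked the cells, whereas others such as G2/M and class II did not. By quintile of the score, the GTPases outside the rule stood at 8.48 ± 2.70, 14.9 ± 3.26, 21.9 ± 5.10, 31.0 ± 2.74 and 47.2 ± 6.42 UMIs. Class I presentation had a wide step at each end, from 113 ± 22.1 in the weak responders to 158 ± 13.0 in the next quintile, and, past 166 ± 15.8, from 189 ± 11.7 to 235 ± 18.8. The type I list had its widest step at the bottom, from 149 ± 29.0 to 221 ± 26.6.

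**Figure D4:**
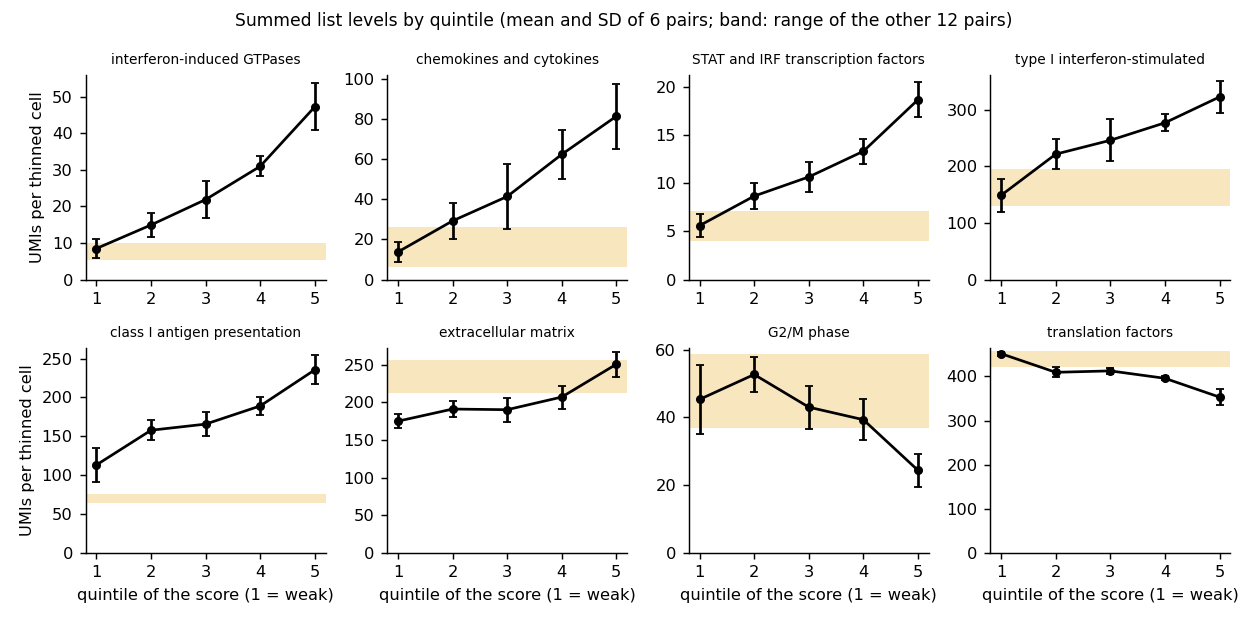
Summed UMIs per thinned cell of 8 gene lists (panels) by quintile of the rule's score within a pair (1 is the weak responders), as mean and SD of 6 pairs, with the range of the 12 other pairs as an orange band. The weak quintile lies in the band for GTPases, above it for class I presentation and below it for extracellular matrix genes. The means of quintiles 2 to 4 also lie below the band for extracellular matrix genes.

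Beside the 12 other pairs, the weak responders were alike in some lists and apart in others. Their GTPase levels of 4.61 to 12.3 UMIs overlapped the 5.24 to 10.0 of the other pairs, as did their type I list (94.9 to 180 against 129 to 195) and their STAT and IRF list (3.58 to 7.37 against 4.05 to 7.13). Class I presentation did not overlap: the lowest weak value, 80.0, lay above the highest of the 12 other pairs, 75.5, whose lowest was 63.5. H2-K1 ran from 12 to 26.8 in the weak responders and from 6.37 to 12.4 in the other pairs, overlapping at 1 end. Since the members are the lowest cells of their pairs by choice and the conditions of the pairs are not given, no test was made between tumors.

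Members also differed among themselves. Of the 181 thinned weak responders, 28 (15.5%) had more class I transcripts than the median middle cell of their own pair, 29 (16.0%) more chemokine transcripts and 11 (6.08%) more type I transcripts, whereas 4 (2.21%) had more transcripts of GTPases outside the rule. Chemokines were the most uneven, with 14 cells at 0, a median of 5 and a highest cell of 176 UMIs. Ranking was also repeated on random parts of each cell's UMIs. When the UMIs were split at random in 2, 185 cells were weak by 1 part. Of these, 156 (84.3%) were weak by the other part too, 29 were middle cells and none was strong. These 185 cells were ranked anew and were not compared with the 185 members. In the part not used for ranking, the rule genes were 5.63-fold (Ifi47) to 8.38-fold (Iigp1) lower in the cells ranked weak than in those ranked strong. This held in 6 of 6 pairs for each of the 4. Both parts come from the same cells and the same 4 genes, so these values describe the ranking and are not separate support.

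Of the 302 genes called higher in the weak responders, 266 lay outside the lists, and the lists with the most calls were those of the cell cycle. Depth and cycle transcripts moved with them. Weak responders had median gene UMIs of 45700 to 53385 by pair and strong responders 29146 to 34802, with no overlap, while the genes detected at 10000 UMIs were alike (medians of 3021 and 3019 over pairs). The middle cells, at 45683 to 53308 gene UMIs, were like the weak responders in depth. The summed S and G2/M transcripts per 10000 had medians of 61.1 in the weak and 17.4 in the strong responders. Of the G2/M genes, which act in mitosis, 16 of 43 tested were called higher against 5.36% of all genes, and the list ran from 31.5 to 56.7 UMIs (median 47.3) in the weak and from 16.0 to 29.6 (median 24.6) in the strong responders. Its log2 ratio was 0.89 ± 0.56. Ube2c, a ubiquitin enzyme of mitotic exit, stood at 1.48 ± 1.07, Cdc20, an activator of the same ubiquitin ligase, at 1.41 ± 0.93, and Cenpa, the centromere histone, at 1.39 ± 0.69. Of the S phase genes, 6 of 33 were called, and the list was higher in 5 of 6 pairs at 0.78 ± 0.56.

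The cycle difference was seen against the strong responders and not against the middle cells: against the middle cells, the G2/M list of the weak responders had a log2 ratio of -0.017 and the S phase list of 0.070. Cells were also ranked by the score within 4 strata of their pair, made by splitting it at the medians of gene UMIs and of cycle transcripts. This ranking was chosen after the data were seen. Median UMIs were then 45706 in the weak and 45550 in the strong responders. The G2/M list fell to a log2 ratio of 0.0054 and the S phase list to 0.047. None of the 41 G2/M and 32 S phase genes tested was called. The genes called higher then numbered 73 of 5630 tested (1.30%), of which 55 were shared with the 302. The absence of calls in the 2 cycle lists is near that share. The genes called lower numbered 351 (6.23%), of which 278 were shared with the 466. The GTPase, chemokine, STAT and IRF, type I and class I lists stood at -2.37, -2.78, -1.53, -0.98 and -0.82.

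**Figure D5:**
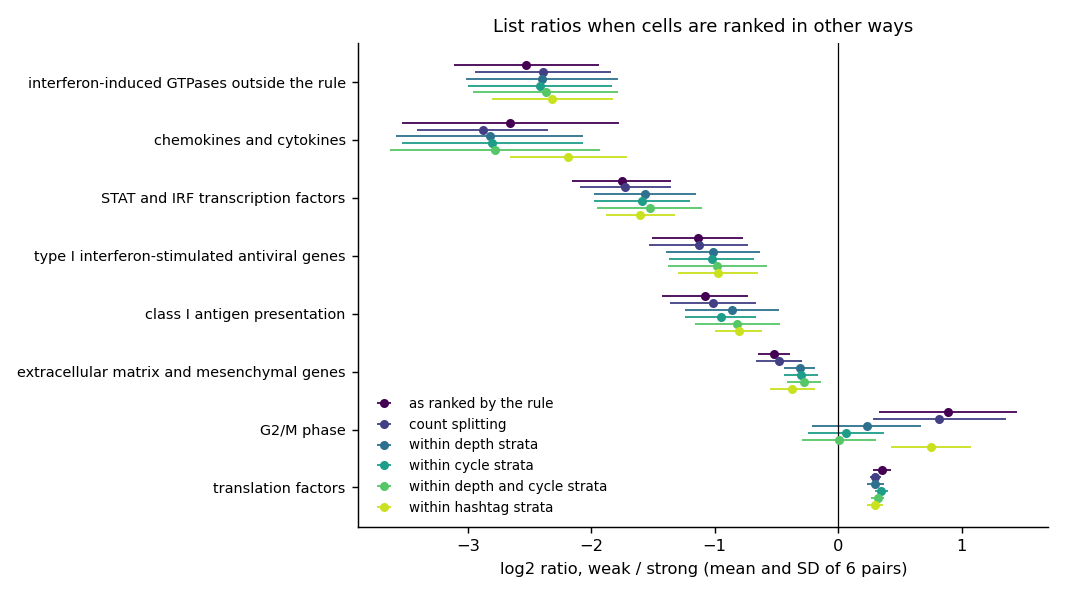
Log2 ratio of weak to strong responders (x axis, mean and SD of 6 pairs) for 8 gene lists (rows) when cells are ranked by the rule, on a random part of their UMIs, or within strata of depth, cycle transcripts, both, or hashtag UMIs (colours). The class I list stays between -1.08 and -0.80 and the GTPase list between -2.53 and -2.32, and the G2/M list moves from 0.89 to 0.0054 in depth and cycle strata.

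Translation genes were higher by small and even amounts. The 32 translation factors ran from 445 to 456 UMIs in the weak and from 340 to 388 in the strong responders, a log2 ratio of 0.36 ± 0.07 with no overlap, and 0.32 ± 0.05 in the depth and cycle strata. Only 3 of them passed the fold of 1.5: Npm1, which works in ribosome assembly, with 41.2 to 45.9 UMIs (median 43.1) against 20.4 to 28.0 (median 24.5), Ncl, its partner in the nucleolus, at 0.93 ± 0.36, and Eif5a at 0.72 ± 0.24. Npm1 remained called in the strata, at 0.59. The 79 tested ribosomal proteins had a list ratio of 0.28 ± 0.10, were higher in 6 of 6 pairs as a sum, and held no called gene. These values are shares of 10000 UMIs, so they rise where other transcripts fall, and levels of RNA per cell were not measured.

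The list of unfolded protein and integrated stress responses had 20 tested genes. Its only called members were 4 genes of serine and asparagine metabolism, all higher. Phgdh, the first enzyme of serine synthesis, had 2.48 to 3.76 UMIs (median 2.93) in the weak and 1.26 to 2.13 (median 1.33) in the strong responders. Psat1, the second enzyme, stood at 1.46 ± 0.60, Asns, which makes asparagine, at 1.18 ± 0.33 and Shmt2, which uses serine in mitochondria, at 0.94 ± 0.51. In the depth and cycle strata Asns was still called at 0.59, and Psat1, Phgdh and Shmt2 were higher in 5 or 6 of 6 pairs at 0.56, 0.51 and 0.38 but below the limit. Hspa5, a chaperone of the same list named for its role, was not called at -0.09. Cth, an enzyme that makes cysteine and lies outside the lists, was called in both rankings, at 1.4 ± 0.63 and 1.31. In the hypoxia and glycolysis list of 21 tested genes, Mif, a cytokine, and Eno1, an enolase, were called higher, and Hk1, a hexokinase, was called lower at -0.74 ± 0.50. Mif and Eno1 lost their calls in the depth and cycle strata, at 0.66 and 0.35, and under random splitting of UMIs, at 0.72 and 0.61, each with 5 of 6 pairs higher. Hk1 was called in the strata at -0.96 but not under random splitting, at -0.10. The 7 tested genes of cholesterol synthesis held no call, which is near the 5.36% of all genes called higher. None of the 7 had a negative ratio, and their median was 0.47, against 0.026 for all genes. The summed list was higher in 5 of 6 pairs, at 0.52 ± 0.80.

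Extracellular matrix genes were lower, with 6 of 22 tested called and a list ratio of -0.52 ± 0.13. The list ran from 163 to 184 UMIs (median 176) in the weak and from 231 to 272 (median 252) in the strong responders. The weak responders lay below all 12 other pairs, which ran from 213 to 256. So did the middle cells of the same 6 pairs, at 179 to 209, so this was not particular to the weak responders. Col3a1, a fibrillar collagen, had 4.66 to 7.07 (median 6.02) against 11.1 to 18.4 (median 14.7), at -1.32 ± 0.39. Mmp3, a matrix protease, was lower in 5 of 6 pairs at -1.77 ± 1.27 and missed the call. The 10 fibroblast markers, which include Col3a1, moved the same way, summing to 7.12 UMIs per cell (5.42 to 8.71 by pair, 1 gene at 0) in the weak and 20.8 (12.5 to 29.9, no gene at 0) in the strong responders, and Col3a1 gave 1052 of 1288 and 2606 of 3536 of those UMIs. Their part in the result was not tested. In the depth and cycle strata the matrix list stood at -0.28 ± 0.14 and remained lower in 6 of 6 pairs.

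Genes of the TGF-beta response and of the dedifferentiated melanoma state followed the matrix. Of the TGF-beta genes 5 of 14 were called lower, including Tgfbi, a secreted matrix protein, at -1.42 ± 0.62 and Id3, an inhibitor of transcription factors, at -1.03 ± 0.34. In the depth and cycle strata 1 of 14 was called, and Tgfbi at -0.82 and Id3 at -0.58 were each lower in 5 of 6 pairs and lost the call. Of the neural crest and dedifferentiation genes, 5 of 14 were called lower: Jun at -1.14 ± 0.26, Zeb2 at -0.83 ± 0.48, Tcf4 at -0.81 ± 0.26, Sox2 at -0.75 ± 0.29 and Axl, a receptor kinase of the invasive state, at -0.64 ± 0.47. Jun alone of these was still called in the strata, at -1.13. Sox9, a neural crest factor, went the other way. It had 0.286 to 0.667 UMIs (median 0.437) in the weak and 0.0652 to 0.207 (median 0.108) in the strong responders, a log2 ratio of 1.55 ± 0.56 that was 1.57 and still called in the strata. Under random splitting of UMIs it was 0.77, higher in 5 of 6 pairs and not called, and against the middle cells it was 0.35. The other pairs had 0.130 to 0.524, within reach of both groups. Immediate early genes, which respond to tissue digestion as well as to signals, were called lower in 4 of 17, among them Egr1 at -1.24 ± 0.74 and Fos at -1.13 ± 0.67. In the strata none of the 17 was called, against 6.23% of all genes.

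Markers of the lineage were sparse in both groups. Of 18 melanocyte lineage genes only Pax3 and Slc24a5 reached the limit for testing, and neither was called. Sox10, a defining factor of melanocytes, had no UMI in the thinned weak or strong responders (limits of 1.66% and 1.76% of cells), and Mitf was below the limit. T cell markers summed to 124 UMIs in the weak and 122 in the strong responders, of which Trbc2 gave 122 and 119, with 10 of the 12 genes at 0 on each side. NK, B cell, neutrophil and erythroid markers summed to at most 0.0608 UMIs per cell in either group. Endothelial markers summed to 0.541 UMIs per cell in the weak and 0.282 in the strong responders, of which Cdh5 gave 74 of 98 and 38 of 48 UMIs. Keratinocyte markers summed to 0.122 and 0.0353, all from Krt10, and pericyte and smooth muscle markers to 0.00552 and 0.0588. Nras itself had a log2 ratio of -0.21 ± 0.33. The share of mitochondrial UMIs had medians of 2.39 to 2.99% in the weak and 2.08 to 2.75% in the strong responders, which overlap. Droplets with cells of 2 tumors were limited by the hashtag filter, which a cell with few tags beside one with many can pass. No doublet caller was run, and doublets within 1 tumor are not seen.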

How the data were processed

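Counts are the deposited matrix of UMI counts per gene and hashtag in each barcode, 32285 genes by 20917 barcodes, not normalized. They came from Cell Ranger 6.1.2 per the file headers, but Cell Ranger 2.1.1, with GRCm38, per the submitters' processing notes, and which applies was not resolved. The filters required 5000 gene UMIs (1856 barcodes), at most 15% mt- UMIs (1657 of those) and a second hashtag at least 3 times the third, in 1 of 6 pairs or of 12 other pairs of at least 10 cells. Cells were thinned without replacement to 10000 UMIs, leaving out 4 weak, 14 middle and 15 strong cells (21 to 50 weak and 22 to 46 strong cells per pair), and levels, log2 ratios and calls were computed as described in the report, tested beforehand on simulated counts (Python 3.11.15, numpy 2.4.6, scipy 1.17.1). Gene coordinates are from GENCODE M21 (GRCm38). The 6 pairs, the members, the 27 gene lists and the 12 marker lists were chosen with earlier results of these data known. Of the lists, Gbp11, Mx1, Mx2, Oas1b and Cxcl11 were not matched. Named genes are up to 6 per list of largest absolute ratio, all receptors and kinases, and the 15 lowest and 15 highest called genes outside the lists; genes given for their role are extra. Alternatives changed the depth, the limits, the ranking and the pairs one at a time. Cells of 1 pair share a tumor and all cells share 1 library, so SDs over pairs measure the spread between these 6 tumors in 1 run.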

Additional observations from a re-analysis of the deposited data

Results flagged for a closer look

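In 16 of 228 values examined (7.02%), 1 of the 6 pairs stood apart from the others, by Dixon's limit for the gap to the nearest pair as a share of the whole range. Chance alone gives about 1 in 20. The pair that stood apart was 3/9 in 5 cases, 7/10 in 4, 8/10 in 3, 6/7 in 2, and 1/9 and 2/8 in 1 each. All values are log2 ratios of weak to strong responders, and the range in brackets is that of the other 5 pairs.

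In pair 3/9, whose weak responders had the highest scores, Tap2 stood at -0.952 (-2.55 to -2.08), and the ribosomal protein genes Rpl4 and Rpl5 at 0.256 (0.53 to 0.67) and 0.292 (0.57 to 0.70). Il11, a cytokine, and Snhg4, a small nucleolar RNA host gene, were higher there, at 4.35 (0.46 to 1.74) and 3.60 (0.42 to 1.49). In pair 7/10, Ifnar2 stood at -2.01 (-0.67 to -0.29), Birc2 at -2.61 (-1.10 to -0.27), Slc24a5 at 2.37 (-0.11 to 0.82) and Psat1 at 2.65 (0.99 to 1.44). In pair 8/10, the mitotic cyclin Ccnb2 stood at 3.66 (0.57 to 1.17), Znfx1 at -3.69 (-2.42 to -1.70) and Lgals9 at 0.0085 (-1.60 to -1.03), the only pair in which Lgals9 was not lower. In pair 6/7, which had the lowest scores, Ifit3 stood at -4.49 (-2.80 to -2.04) and the mitochondrial share of UMIs at 0.523 (-0.02 to 0.18). Mlkl, the executor of necroptosis, stood at 0.232 in pair 1/9 (-1.18 to -0.81). The list of TNF and NF-kB targets stood at -0.267 in pair 2/8 (-0.71 to -0.55).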

How the results depend on the processing

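Over 26 alternatives, 118 of the 121 named genes that were called had no change of sign and 21 were called in each. The changes of minimum level, fold and pseudocount and the runs without 1 pair could not change the sign of a called gene. Most named genes were also chosen by the size of their ratio in these cells, so the count of signs is a description. The count of genes called higher depended most on the processing. With the lowest and highest 10% it was 458, with 33% it was 180, within strata split at the median of gene UMIs 102, at that of cycle transcripts 86, and, in rankings chosen after seeing the data, 73 within 4 strata split by both and 196 within strata by hashtag UMIs. The lower and higher counts were 174 and 117 with a minimum level of 1, 246 and 84 with a pseudocount of 0.5, and 233 and 78 with a fold of 2. Leaving out 1 pair gave 493 to 541 lower and 293 to 467 higher calls, the most without pair 8/10, where fewer pairs must share a sign. For the comparison with the middle 60%, genes were tested where the strong responders averaged at least 0.2 UMIs. That limit drops genes scarce in the strong responders, so its counts cannot be set beside the main ones. Against the middle 60%, 238 genes were lower and 7 higher. The list ratios were then -1.46 for GTPases, -0.62 for class I, -0.76 for type I, -0.31 for receptors and kinases, -0.98 for STAT and IRF factors, -1.77 for chemokines, 0.070 for S phase, -0.017 for G2/M, -0.16 for matrix and 0.15 for translation genes. G2/M thus changed sign, as did Cdc20 (-0.15), Cdca8 (-0.0050) and Ube2c (-0.20); the list of G1 regulators did so thinned to 5000 UMIs (0.063). The 10% limit gave -3.27 for GTPases, -1.43 for class I, -0.68 for matrix and 0.45 for translation genes, and the 33% limit -0.33 for matrix and 0.25 for translation genes. G2/M was 0.23 within depth strata, 0.063 within cycle strata and 0.0054 in the 4 strata. S phase was 0.15 and 0.047 in the latter rankings. Matrix genes were -0.31, -0.30, -0.28 and, within hashtag strata, -0.37. Depth limits the sparse genes, since a pair holds as few as 21 thinned weak responders and a gene was tested from 0.2 UMIs per cell.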
